A study of Mus musculus with 13 samples.

Results

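The genes described here encode the receptors for glutamate, GABA and glycine and the proteins that hold these receptors at the synapse, measured in fetal mouse brain with and without Meg3. A list of 45 symbols was fixed: AMPA, NMDA, kainate and metabotropic glutamate receptor subunits, GABA and glycine receptor subunits, the scaffolds and kinases of the excitatory postsynaptic density, the neuroligins and gephyrin. Probe sets annotated to exactly 1 of these symbols were found for 43 genes, and the probe set with the highest mean signal over all arrays stood for its gene. Of these, 42 lay above the filter on low signals (a mean log2 signal above the 40th percentile, which corresponds to a signal of 56.9) and were tested, out of 12918 genes tested in all. Grin2a was below the filter, and Grin1 and Shank2 were not analysed here.

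Total RNA of whole brains from embryos at embryonic day 18.5 had been hybridised to Affymetrix expression arrays, 1 embryo per array. There were 6 wild-type embryos and 7 Meg3 knock-out embryos from 5 litters, all of them described as biological replicates. Meg3 is an imprinted gene that is transcribed from the maternally inherited chromosome into a long noncoding RNA, and the series asked how its loss altered gene expression in the fetal brain. The labels name the genotype and do not describe the deleted part of Meg3, the strain or the sex. The litter of an embryo was read from the first number of its label, which takes 5 values, the number of litters stated for the series; that this number is the litter is an inference, and every litter result rests on it. Read so, litter 148 contributed 1 knock-out, litter 219 2 wild-type and 1 knock-out, litter 238 1 wild-type and 2 knock-out, litter 250 2 of each and litter 262 1 of each.

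Fast excitation in the brain is carried by AMPA, NMDA and kainate receptors, which are tetramers of subunits that open a cation channel when glutamate binds, while metabotropic glutamate receptors act through G proteins. Fast inhibition is carried by pentameric GABA-A and glycine receptors, which conduct chloride and are anchored by gephyrin. Subunit composition is known to change around birth: fetal and neonatal neurons rely on Grin2b, Grin2d, Gabra2, Gabra3, Gabra5 and Glra2, whereas Grin2a is acquired later. The excitatory receptors are held by a scaffold of PSD-95 family proteins (Dlg genes), SAPAP (Dlgap), Shank and Homer proteins, and CaMKII is the most abundant kinase there.

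Meg3 itself was checked first. Its signal was 3109, 5321 and 6251 in wild-type and 264, 347 and 589 in knock-out brains, where the 3 signals given for a genotype, here and below, are the lowest, the median and the highest array. The groups did not overlap, and the difference was -3.64 ± 0.20 on the log2 scale (SE; limma, adjusted p = 1.30e-07). Neuronal identity was also present: all 8 of 8 general neuron markers were above the filter, whereas 0 of 2 retina markers, 1 of 4 pituitary markers and 1 of 3 skeletal muscle markers were. None of the marker lists held a gene past the threshold, although the 4 choroid plexus markers tested were all lower in knock-out brains, with a median of -0.56 and summed signals of 22003 to 36383 in wild-type and 7915 to 30483 in knock-out brains. Of the 7 GABAergic neuron markers 5 were lower and 2 higher, with a median of -0.17, where 65.4% of all genes were higher. Whole brains were measured, so fewer cells of a type and less RNA per cell cannot be told apart.

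A few arrays, 3 of 13, stood apart and touch the results below. Wild-type 1 and wild-type 2 are the 2 wild-type embryos of litter 219, and knock-out 1 is the sole embryo of litter 148. The 3'/5' signal ratio of the Actb control probe sets, which is higher when RNA is degraded or its copying into labelled cRNA stops early, was 2.92 on wild-type 2 and 1.81 on knock-out 1 and between 1.32 and 1.50 on the others, wild-type 1 included at 1.34. The summed signal of the 8 neuron markers was lowest of all arrays on wild-type 1, at 70103, with 74333 on wild-type 2 and 74838 on knock-out 1, against up to 93430 in wild-type and 94459 in knock-out brains. The summed red cell markers were highest on wild-type 1, at 1763 within a wild-type range of 285 to 1763 and a knock-out range of 376 to 1755. The glutamatergic neuron markers (5 of 5 above the filter) summed to 14431 on wild-type 1, within a wild-type range of 10051 to 14940 and a knock-out range of 12249 to 16207. The GABAergic neuron markers (7 of 7) summed to 14027 there, the lowest of the wild-type range that ended at 15247, with 11400 to 16149 in knock-out brains. A sum is led by the brightest markers. By median marker, wild-type 1 stood 0.30 log2 units above the other wild-type arrays for the GABAergic list and 0.47 above them for the glutamatergic list. For the general neuron list it stood at -0.32 and for red cells at 0.83. By summed signal, wild-type 1 was second lowest of the 13 arrays for the astrocyte markers and second highest for the microglia, endothelium and choroid plexus markers. By median marker against the other wild-type arrays, it stood at -0.13 for astrocytes, 0.28 for microglia, -0.04 for endothelium and 0.27 for choroid plexus. No listed marker was at 0 on all arrays. Fits that bear on the Actb ratio are given with the counts below; the part of the marker differences in the results was not tested.

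No receptor or scaffold gene differed between the genotypes past the threshold. The fit (limma on log2(signal + 16), Benjamini-Hochberg over 12918 genes) called 0 of 42, with every adjusted p at 1.00, against a background of 0.0232% of all genes, which were 3 genes, all lower. At an unadjusted p under 0.05, 1 member (Shank1) was higher and the background was 1.71% of genes; its wild-type mean lay below the filter signal, so it passed the filter through the knock-out group, and nothing is read from this count. In no member did the groups fail to overlap, which happened in 0.0774% of genes. The changes ran from -0.09 (Grin2d) to 0.55 (Shank1), on the log2(signal + 16) scale that understates changes at low signals.

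The mean signal was higher in knock-out brains for 40 of 42 members on the deposited values, against 65.4% of all genes, but for 33 with equal trimmed means (all genes 46.8%), 31 after quantile normalization (39.2%) and 13 after centring each array on its median (12.3%). Median centring moved the median change of all genes from 0.04 to -0.15, so the members were read against that median. Relative to it, 34 of 42 lay above on the deposited values and 37 after quantile normalization. Median centring shifts all genes of an array alike, so its count of 34 could not differ. Equal trimmed means, also at 34, multiply each array by 1 factor and leave little room for a difference. The median member change was 0.14 against 0.04 for all genes, a gap of 0.10. The counts by set below are to be read against the same shares of all genes, 65.4% on the deposited values and 12.3% after median centring. In both settings the genes above the median of all genes were 4 of 5 AMPA, 2 of 3 NMDA, 5 of 5 kainate and 4 of 5 metabotropic. They were 8 of 9 for GABA, 3 of 3 for glycine, 7 of 9 for scaffolds and kinases and 1 of 3 for neuroligins.

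The count and the gap moved with the arrays used. Without wild-type 1, 28 of 42 members had a higher knock-out mean (all genes 57.7%), the median was 0.05 against 0.03 for all genes, and the gap was 0.03. Without wild-type 2, 34 of 42 were higher (all genes 57.4%), the median was 0.14 and the gap was 0.11, no smaller than with all arrays. Without both, 22 of 42 were higher, where the background was 50.0% of all genes, and the median of 0.01 lay 0.01 above that of all genes. Without wild-type 2 and knock-out 1, the arrays with the highest Actb ratio, 32 were higher (all genes 56.5%) and the gap was 0.18, and with the Actb ratio as a covariate 35 were higher (all genes 59.0%) and the gap was 0.09. The gap in medians was thus smaller in the fits that left out wild-type 1. It was not smaller where wild-type 2 was left out alone or together with knock-out 1. The count of members above the median of all genes fell in each case. It was 34 with all arrays, 24 without wild-type 1, 31 without wild-type 2 and 28 without wild-type 2 and knock-out 1. No member passed the threshold in any of these fits. Leaving out wild-type 1, wild-type 2 and knock-out 1 gave a median of 0.02 against 0.00 for all genes.

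**Figure D1:**
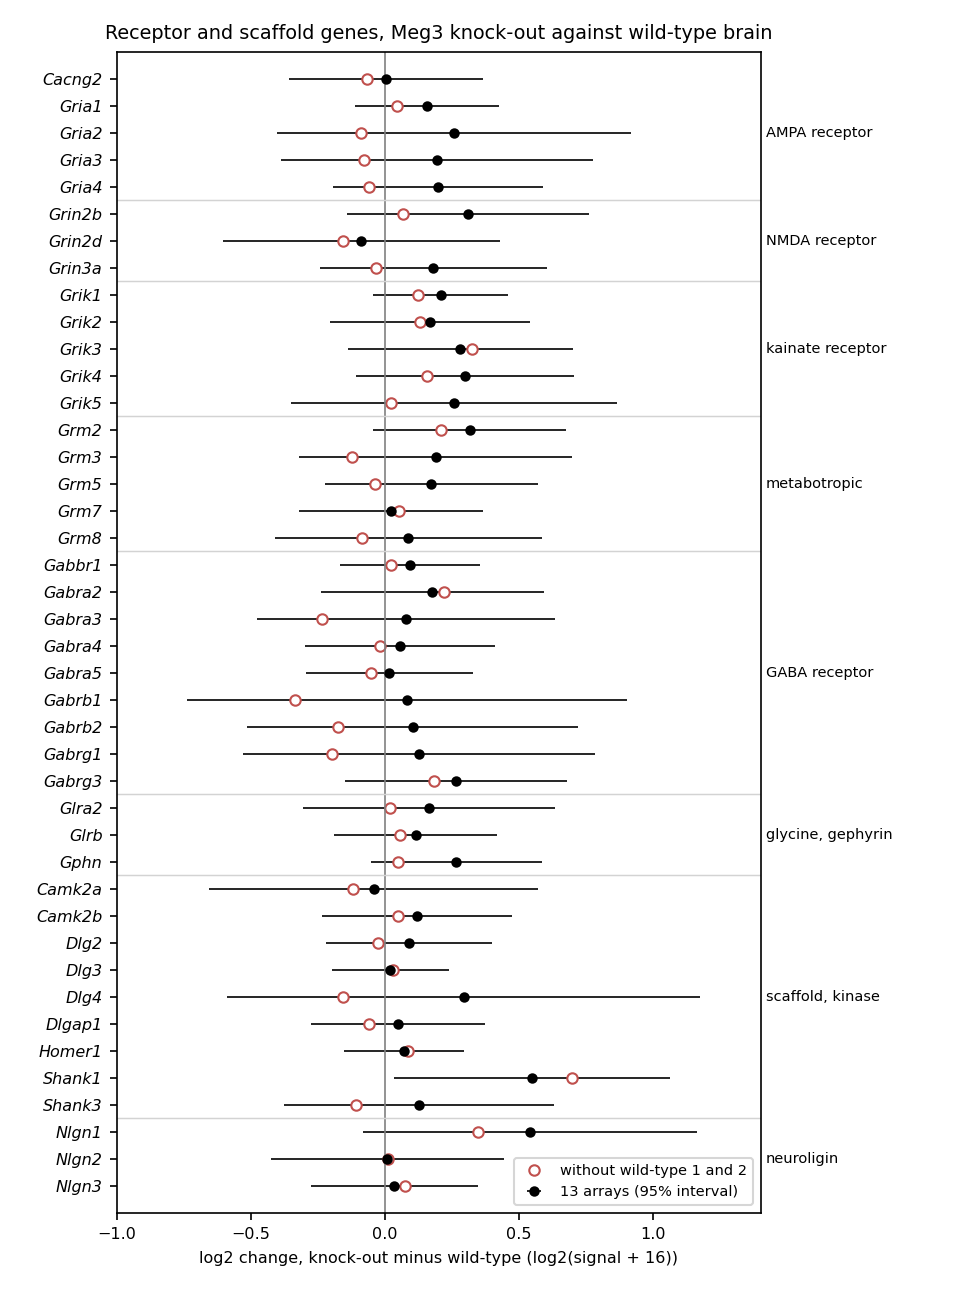
Log2 change (knock-out minus wild-type, log2(signal + 16)) of the 42 members by role: black points and bars are all 13 arrays with the 95% interval, and open red circles are the change without wild-type 1 and wild-type 2. Of the black points 40 lie right of 0 on the deposited values (all genes 65.4%), and 13 members are above 0 after median centring (12.3%). Of the open circles 22 lie right of 0 (50.0%). The interval of Shank1, which passed the filter through the knock-out group, supports no difference although it lies right of 0.

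The precision of these comparisons differed among members. The 95% interval of the log2 change, unadjusted for the number of genes, was narrowest for Dlg3, 0.44 wide, and widest for Dlg4, 1.76 wide, with a median width of 0.83. For 39 of 42 members it lay inside -1 to 1, so a doubling or halving of the mean was outside it, and for the other 3, Shank1, Nlgn1 and Dlg4, it reached above 1. The number of arrays limits this precision, and the median within-group SD of the members (0.38 on the log2 scale, 0.29 without wild-type 1 and wild-type 2) was above that of all genes (0.27 and 0.22).

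With 1 probe set per gene, wild-type 1 and wild-type 2 were mostly low for different members, which is partly built into the measures. Only 1 array can be the lowest for a gene, and each array is part of the mean that the other is set against. Wild-type 1 was the lowest wild-type array for 20 of 42 members (47.6%; all genes 31.6%), and wild-type 2 for 12 (28.6%; all genes 30.8%). Against the mean of the other 5 wild-type arrays, wild-type 1 was more than 1 log2 unit lower for 11 members (26.2%, against 10.5% of all genes). Wild-type 2 was that low for 5 members (11.9%, against 5.29%), and with these probe sets no member was that low on both. Other probe sets above the filter were that low on wild-type 1 and wild-type 2 for Gabrb2 (-1.24 and -1.71) and Gabra3 (-1.04 and -1.43). Across the 42 members the 2 arrays' deviations correlated negatively (r = -0.68, rho = -0.70), and so they did across all 12918 genes (r = -0.58, rho = -0.63). These points share the 2 libraries and the wild-type arrays they were set against, so the correlation is a description.

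The deviations differed among the sets of genes. Relative to the other wild-type brains, wild-type 1 had a median deviation of -1.06 for AMPA, -0.95 for NMDA, -0.94 for metabotropic, -0.87 for GABA, -0.66 for glycine and -0.21 for kainate receptor genes, and of 0.06 for the neuroligins and 0.33 for the excitatory scaffolds and kinases. Wild-type 2 had -0.66 for those scaffolds and kinases, -0.17 for AMPA and NMDA, 0.07 for metabotropic, 0.08 for kainate, 0.12 for neuroligin, 0.38 for glycine and 0.41 for GABA receptor genes. Wild-type 1 was lowest for 6 of 9 GABA receptor genes and 0 of 9 scaffold and kinase genes, and wild-type 2 for 1 of 9 and 6 of 9. The sets of kainate genes (2 of 5 lowest on each array) and AMPA genes (3 and 2 of 5) were divided between both arrays. Over all genes the 2 arrays had median deviations of 0.02 and -0.03, and no test of a difference among the sets was made. Each of the 2 arrays is part of the mean that the other was set against, so a low value on 1 raises the deviation of the other.

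Knock-out 1 was low for part of the same members. It was the lowest knock-out array for 12 of 42 members (28.6%; all genes 23.2%), and all 12 were also lowest on wild-type 1: Glra2, Glrb and Gphn, 5 GABA receptor genes (Gabra3, Gabra5, Gabrb1, Gabrb2 and Gabrg1), Grm3, Grm8, Gria3 and Nlgn1. The deviations of these 2 arrays, each from its own genotype, correlated at r = 0.67 (rho = 0.62) over the members and at r = 0.40 (rho = 0.34) over all genes. They come from different litters and carry different Actb ratios. This correlation is a description across genes that share 2 libraries.

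**Figure D2:**
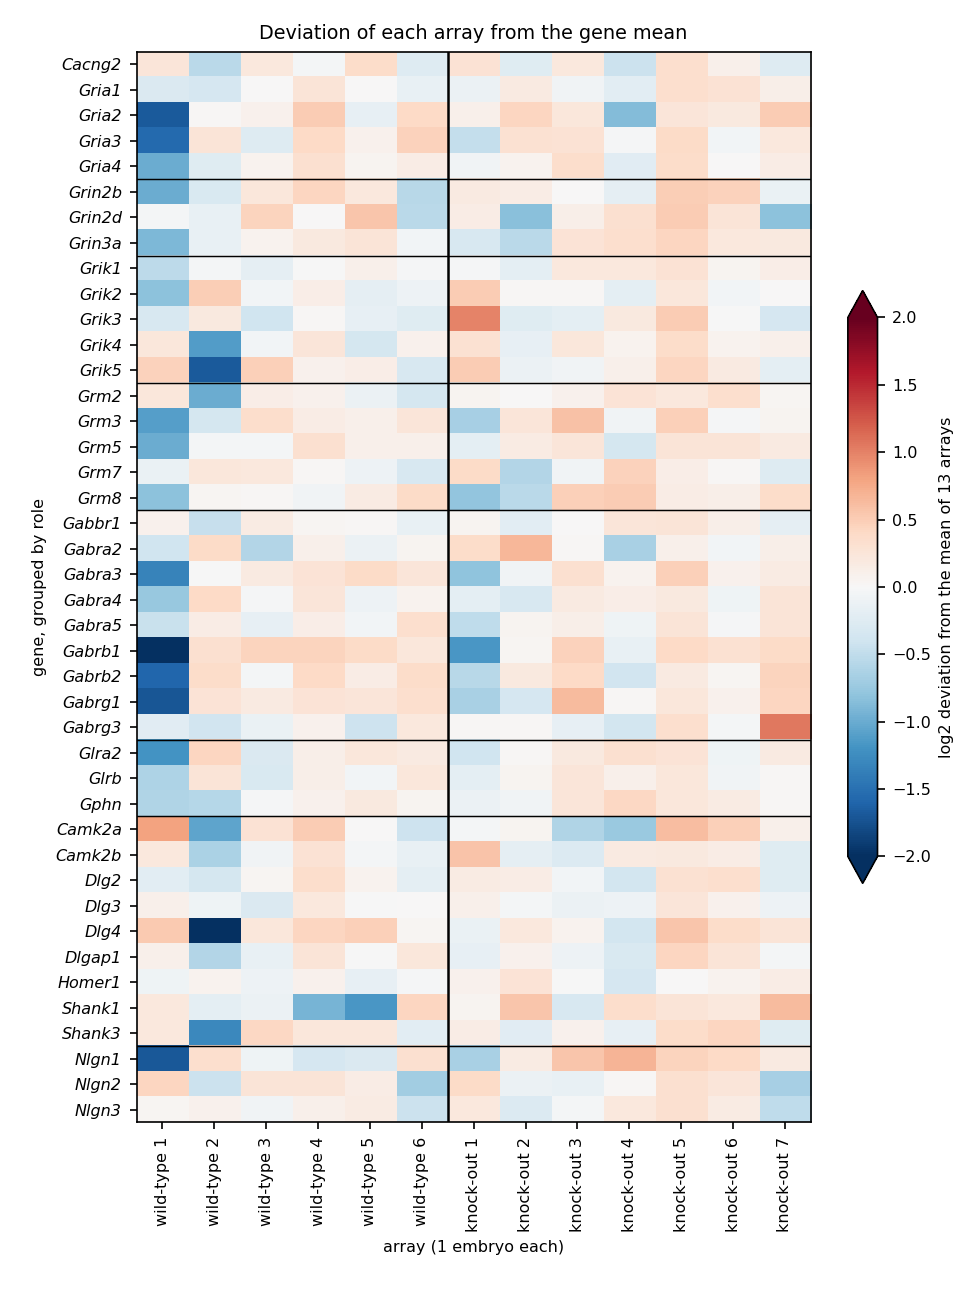
Log2 deviation of each of the 13 arrays (columns) from the gene's mean over all arrays, for the 42 members (rows, grouped by role); blue is below and red above the mean, and the colour scale ends at -2 and 2. Blue in wild-type 1 falls on receptor genes such as Gabrb1 and Gria2, blue in wild-type 2 on Dlg4, Grik5, Shank3 and Camk2a, and knock-out 1 repeats part of the wild-type 1 column.

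On the scale of whole arrays, the members' median deviation from their own 13-array means was -0.36 on wild-type 1, where that of all genes was -0.01, and -0.12 on wild-type 2, where it was -0.04. The highest was knock-out 5, of litter 250, at 0.31, with all genes at 0.14. Wild-type 1 was the lowest of all 13 arrays for 19 members and wild-type 2 for 11.

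**Figure D3:**
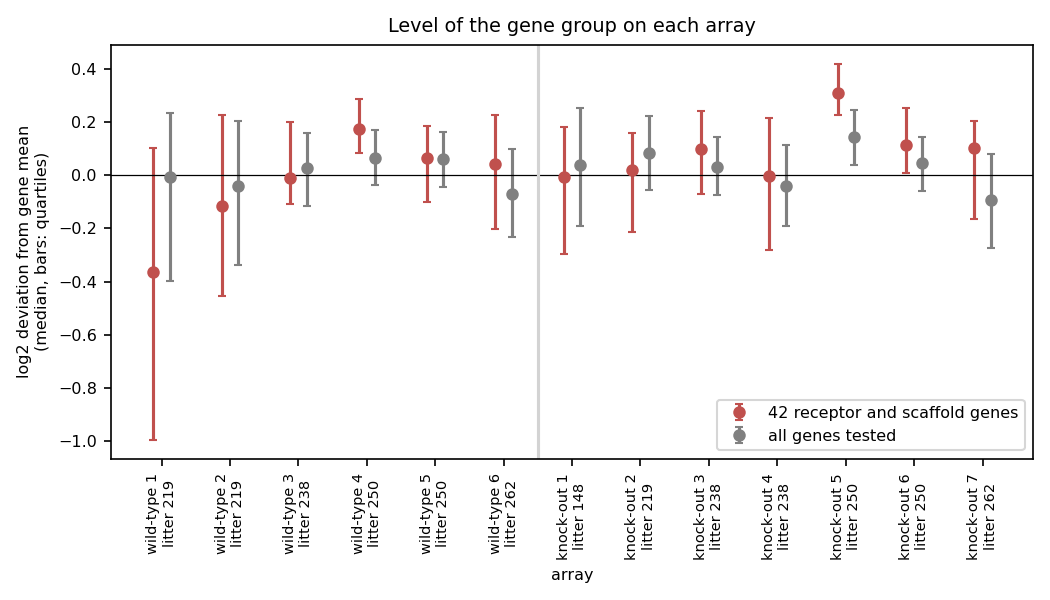
Median log2 deviation from the gene means on each array, for the 42 members (red) and all 12918 genes tested (grey); bars span the quartiles, and the litter is given under each array. Wild-type 1 has the lowest member median (-0.36) and the widest quartile range (1.10), and the other arrays of litters 238, 250 and 262 have medians near or above 0.

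Within litters that held both genotypes, the median member difference (knock-out minus wild-type) was 0.33 in litter 219 (31 of 42 higher; all genes 69.9%), 0.01 in litter 238 (21 higher; 43.9%), 0.09 in litter 250 (34 higher; 60.5%) and 0.02 in litter 262 (23 higher; 44.4%). The same medians over all genes were 0.16, -0.04, 0.03 and -0.03. The largest member difference thus stood in the litter that holds wild-type 1 and wild-type 2, where the count of members was close to the share of all genes. Grm2, Grik1, Grik4, Gabra2 and Shank1, 5 of 42 (11.9%), were higher in the knock-out in each of the 4 litters, where the background was 8.00% of all genes. Shank1 passed the filter through the knock-out group, which favours a higher knock-out value, so nothing is read from this count. With litter as a block, 37 of 42 were higher (all genes 64.6%) and 0 passed the threshold.

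AMPA receptors carry most fast excitatory current, and Gria2 is the subunit that, after RNA editing, keeps calcium out of the channel. All 5 genes of this set had higher knock-out means on the deposited values (2 after median centring), with a median of 0.19, which was 0.02 without wild-type 1 and -0.07, with 1 of 5 higher, without wild-type 1 and wild-type 2. Gria2 signals were 1192, 4014 and 5503 in wild-type and 2114, 4504 and 5482 in knock-out brains. The low wild-type value was wild-type 1, with the next at 3453, the low knock-out value was knock-out 4, with the next at 4157, and the other arrays of both genotypes overlapped. The change was 0.26 ± 0.31 (SE, 95% interval -0.40 to 0.92; exact permutation p = 0.518, two-sided, n = 6 and 7) and -0.05 without wild-type 1.

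Gria1, the subunit inserted during activity-dependent strengthening, varied less. Its signals were 1457, 1755 and 2196 in wild-type and 1584, 1990.4 and 2340 in knock-out brains, with both litter 219 wild-type arrays at the bottom. Its change was 0.16 ± 0.13 (-0.11 to 0.43; exact permutation p = 0.216, two-sided, n = 6 and 7) and 0.04 without those arrays. The other Gria1 probe set above the filter gave 0.37 ± 0.12 when tested on its own (limma, unadjusted p = 0.00951, adjusted p = 0.9999). Relative to the other wild-type arrays it stood at -0.01 on wild-type 1 and -0.49 on wild-type 2. Gria4, a subunit with early expression in development, stood at 666, 1403 and 1685 against 1146, 1404 and 1731. The medians were nearly equal, and the lowest value was wild-type 1. Its change was 0.20 ± 0.18, and 0.02 without wild-type 1. Gria3, on the X chromosome, followed the same course, with wild-type 1 at 219.9 and the next wild-type array at 561, and a change of 0.19 that was -0.10 without wild-type 1.

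Cacng2 encodes stargazin, which carries AMPA receptors to the synapse. Its signals were 771, 1200.4 and 1457 in wild-type and 831, 1204 and 1423 in knock-out brains. The ranges lay over each other, and the change was 0.00 ± 0.17 (-0.36 to 0.37; exact permutation p = 0.986, two-sided, n = 6 and 7). Wild-type 2 was its lowest array.

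NMDA receptors need coincident glutamate binding and depolarisation, and the GluN2 subunit sets how slowly their current decays. Of the 3 genes tested, 2 had a higher knock-out mean on the deposited values (1 after median centring), with a median of 0.18, and 1 of 3, with a median of -0.03, without wild-type 1 and wild-type 2. Grin2b, the chief fetal GluN2 subunit of the forebrain, had signals of 543, 1084 and 1491 in wild-type and 969, 1225 and 1550 in knock-out brains. Wild-type 1, wild-type 6 (742) and wild-type 2 (887) lay below every knock-out array, and the other 3 wild-type arrays lay within the knock-out range. Its change was 0.31 ± 0.21 (-0.14 to 0.76; exact permutation p = 0.219, two-sided, n = 6 and 7), 0.14 without wild-type 1 and 0.06 without wild-type 1 and wild-type 2.

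Grin2d, a slow subunit of the early diencephalon and brainstem, was the lowest member by change. Its signals were 479, 698 and 1039 in wild-type and 388, 786 and 1009 in knock-out brains. The knock-out median was the higher and its mean the lower, with knock-out 2 (388) and knock-out 7 (394) well below the other 5. The change was -0.09 ± 0.24 (-0.61 to 0.43). Grin2a, the subunit that joins NMDA receptors after birth, had signals of 6.6, 20.5 and 30.3 in wild-type and 4.5, 16.6 and 27.1 in knock-out brains. It was above the filter signal of 56.9 on 0 of 13 arrays, so no comparison of genotypes was made. Grin3a, which lowers calcium entry through NMDA receptors, had a change of 0.18 ± 0.20, and 0.02 without wild-type 1, where wild-type 1 stood at 600.1 and the next at 1014.

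Kainate receptor genes had a higher knock-out mean for 5 of 5 (4 after median centring), with a median of 0.26, and 5 of 5, with a median of 0.13, without wild-type 1 and wild-type 2. The glycine and neuroligin sets were the others in which every member was above 0 in that reduced fit. Grik1, a subunit that forms channels on its own, had signals of 281, 402 and 439.9 in wild-type and 355, 453 and 503 in knock-out brains. Wild-type 1 was lowest, and the knock-out mean exceeded the wild-type in 4 of 4 litters. Its change was 0.21 ± 0.12 (-0.04 to 0.46; exact permutation p = 0.0746, two-sided, n = 6 and 7), and 0.12 without wild-type 1.

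Grik3, the subunit of low glutamate affinity, reached 804, 928 and 1229 in wild-type and 839, 1067 and 2137 in knock-out brains. The highest value was knock-out 1, above the next, knock-out 5, at 1525. Its change was 0.28 ± 0.20, and 0.32 without wild-type 1 and wild-type 2. Grik2, the principal subunit of many kainate receptors, had 257, 440.2 and 664 against 406, 472 and 668. Wild-type 1 was the low value, and the change of 0.17 ± 0.18 was 0.02 without it and 0.13 without wild-type 1 and wild-type 2.

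Grik4 and Grik5 are the high-affinity subunits that need another kainate subunit to form a channel. Grik4 signals were 61.4, 153 and 182 in wild-type and 133, 163 and 199 in knock-out brains. The lowest wild-type array was wild-type 2, the next stood at 115, and the groups overlapped above that. The change was 0.30 ± 0.19, and 0.11 without wild-type 2. Grik5 was 403 on wild-type 2 with the next wild-type array at 1062, and its change of 0.26 ± 0.28 became -0.05 without wild-type 2.

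Metabotropic receptors adjust transmitter release and excitability. On the deposited values 5 of 5 had a higher knock-out mean (1 after median centring), with a median of 0.17, and 2 of 5, with a median of -0.04, without wild-type 1 and wild-type 2. Grm2, a presynaptic receptor that dampens glutamate release, had signals of 227, 463 and 554 in wild-type and 473, 498 and 596 in knock-out brains. The knock-out arrays lay close together, the low wild-type array was wild-type 2, and the next was 365. The change was 0.32 ± 0.17 (-0.04 to 0.68; exact permutation p = 0.0758, two-sided, n = 6 and 7), 0.15 without wild-type 2 and 0.21 without wild-type 1 and wild-type 2.

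Grm5, the group I receptor that is bound by Homer and is prominent in young forebrain, had signals of 1344, 2758 and 3358 in wild-type and 2117, 3048 and 3224 in knock-out brains. Wild-type 1 was far below the next wild-type array at 2613, and the other arrays overlapped. The change was 0.17 ± 0.19 (-0.22 to 0.57; exact permutation p = 0.469, two-sided, n = 6 and 7) and -0.01 without wild-type 1. The other Grm5 probe set above the filter gave 0.45 ± 0.21 when tested on its own (limma, unadjusted p = 0.0493, adjusted p = 0.9999). It stood at -0.97 on wild-type 1 relative to the other wild-type arrays. Grm3 (0.19 ± 0.24), Grm8 (0.09 ± 0.23) and Grm7 (0.02 ± 0.16) completed the set. Without wild-type 1 and wild-type 2 their changes were -0.12, -0.09 and 0.05.

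GABA-A receptors assemble from alpha, beta and gamma subunits, and the alpha subunit sets where a receptor sits and which drugs it binds. On the deposited values 9 of 9 GABA receptor genes had a higher knock-out mean (all genes 65.4%), with a median of 0.09, and 1 after median centring (12.3%). In both settings 8 of 9 lay above the median of all genes. Without wild-type 1, 3 of 9 were higher (all genes 57.7%), with a median of -0.09. Without wild-type 1 and wild-type 2, 3 of 9 were higher (all genes 50.0%), with a median of -0.05. Gabra2, the main alpha subunit of fetal forebrain, had signals of 216, 323 and 439 in wild-type and 206, 355 and 535 in knock-out brains. Its lowest arrays were wild-type 3 and knock-out 4, both of litter 238, and the ranges overlapped through most of their length. The change was 0.18 ± 0.20 (-0.24 to 0.59; exact permutation p = 0.422, two-sided, n = 6 and 7), and 0.22 without wild-type 1 and wild-type 2.

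Gabra3, an alpha subunit strongest in immature cortex, stood at 547, 1620.0 and 1833 in wild-type and 796, 1479.9 and 1949 in knock-out brains. The lowest arrays were wild-type 1 (next 1395) and knock-out 1 (next 1336), and the wild-type median was the higher. Its change was 0.08 ± 0.26 (-0.48 to 0.63), -0.18 without wild-type 1. Gabra5, the alpha subunit of extrasynaptic tonic inhibition, had 1000.5, 1402 and 1717 against 951, 1415 and 1629.8. Medians and ranges nearly coincided, and the change was 0.02 ± 0.15 (-0.30 to 0.33; exact permutation p = 0.910, two-sided, n = 6 and 7).

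Gabrg3, a gamma subunit, was close to the filter, with signals of 54.3, 66.9 and 92.1 in wild-type and 56.5, 79.0 and 178 in knock-out brains. It was above the filter signal on 10 of 13 arrays, and knock-out 7 gave the high value. Its change was 0.26 ± 0.19. The other Gabrg3 probe set above the filter, also close to it with a mean signal of 66.8, gave 0.42 ± 0.15 when tested on its own (limma, unadjusted p = 0.0165, adjusted p = 0.9999).

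With the probe sets used, the beta and gamma subunits Gabrb1, Gabrb2 and Gabrg1 were low on wild-type 1 and not on wild-type 2. On wild-type 2 they stood 0.44, 0.50 and 0.41 above the mean of the other wild-type arrays, a mean that the low wild-type 1 pulls down. The other Gabrb2 probe sets above the filter were below that mean on wild-type 2, at -0.31, -0.08, -0.11 and -1.71. Gabrb1 was 242 on wild-type 1 and 474 on knock-out 1, while the other wild-type arrays were 1268 or more and the other knock-out arrays 971 or more. Gabrb2 was 604 on wild-type 1 with the next at 1795, and Gabrg1 was 234 with the next at 912. Their changes of 0.08, 0.10 and 0.13 became -0.33, -0.20 and -0.20 without wild-type 1. Gabra4 (0.05 ± 0.17) and Gabbr1 (0.09 ± 0.12), which encodes a subunit of the metabotropic GABA-B receptor, were the remaining genes of the set.

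**Figure D4:**
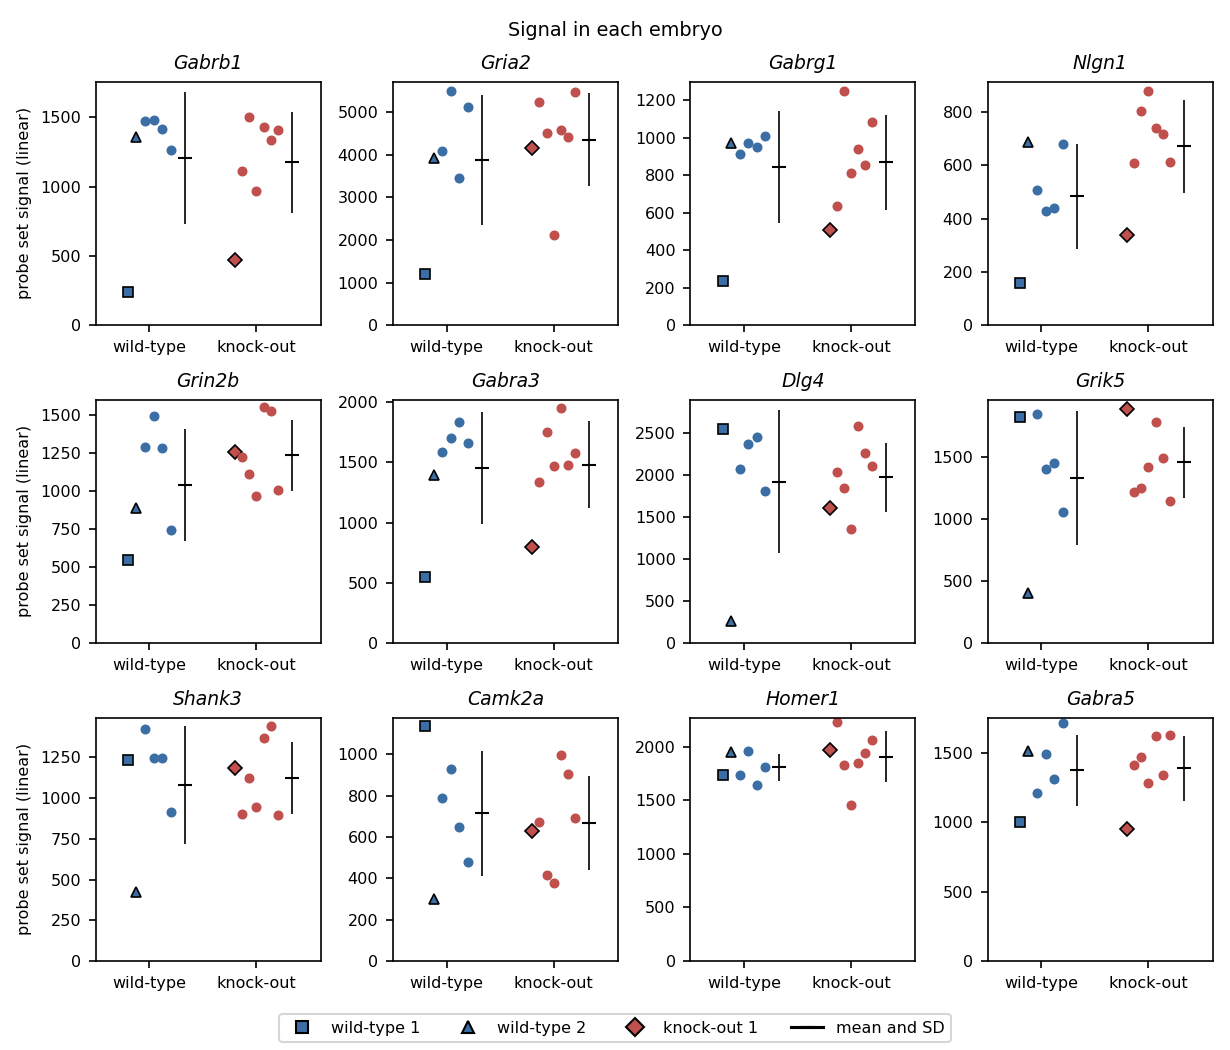
Probe set signal (linear axis from 0) of 12 members on each array: blue for wild-type (6 arrays), red for knock-out (7 arrays), a square for wild-type 1, a triangle for wild-type 2 and a diamond for knock-out 1, with the mean and SD beside each group. The square sits below its group for Gabrb1, Gria2, Gabrg1, Nlgn1 and Gabra3, the triangle for Dlg4, Grik5, Shank3 and Camk2a, and the 2 genotypes overlap in every panel.

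Glycine receptors of the fetal brain contain the Glra2 subunit, and gephyrin (Gphn) anchors both glycine and GABA-A receptors through, among others, the Glrb subunit. All 3 had a higher knock-out mean on the deposited values (1 after median centring), with a median of 0.16, which was 0.00 without wild-type 1 and 0.05 without wild-type 1 and wild-type 2. Glra2 signals were 864, 2217 and 2707 in wild-type and 1518, 2262 and 2486 in knock-out brains. The lowest array of each genotype was number 1 and the medians differed little. Its change was 0.16 ± 0.22 (-0.31 to 0.63; exact permutation p = 0.604, two-sided, n = 6 and 7), -0.06 without wild-type 1. Gphn had 1313, 2007 and 2273 against 1829, 2221 and 2671. Wild-type 1 and wild-type 2 (1336) were its 2 lowest arrays, and without them the change of 0.27 ± 0.15 (-0.05 to 0.58; exact permutation p = 0.121, two-sided, n = 6 and 7) was 0.05. The difference for Glrb was 0.11 ± 0.14, and 0.05 without them.

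Among the excitatory scaffolds and kinases, 8 of 9 had a higher knock-out mean on the deposited values (2 after median centring), with a median of 0.09. Without wild-type 2 it was 5 of 9 and 0.00, and without wild-type 1 and wild-type 2 it was 4 of 9 and -0.03. Dlg4 (PSD-95), the main scaffold of the mature synapse, had signals of 268, 2217 and 2547 in wild-type and 1361, 2034 and 2586 in knock-out brains. Wild-type 2 was far below the next wild-type array at 1814, and the wild-type median was the higher. The change was 0.29 ± 0.41 (-0.59 to 1.18; exact permutation p = 0.823, two-sided, n = 6 and 7), and -0.20 without wild-type 2.

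Dlg3 (SAP102), the family member of the early synapse, was the steadiest of the 42 in its 95% interval. Its signals were 944, 1148 and 1328 in wild-type and 1056, 1125 and 1366 in knock-out brains. No array stood apart, and the change was 0.02 ± 0.10 (-0.20 to 0.24; exact permutation p = 0.815, two-sided, n = 6 and 7). Homer1, which links metabotropic receptors to Shank, was nearly as even, with 1645, 1775 and 1961 against 1456, 1942 and 2231. Its lowest array was knock-out 4 and its highest knock-out 2, and the change was 0.07 ± 0.10 (-0.15 to 0.29).

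Shank proteins join the scaffold to the actin cytoskeleton. Shank1 was the member with the smallest unadjusted p, and its signals lay around the filter: 17.6, 51.6 and 85.2 in wild-type and 44.2, 74.2 and 100.4 in knock-out brains. It was above the filter signal on 8 of 13 arrays and its wild-type mean of 50.0 was below that signal, so it passed the filter through the knock-out group. The change was 0.55 ± 0.24 (0.03 to 1.06; unadjusted limma p = 0.0387, adjusted p = 1.00; exact permutation p = 0.0693, two-sided, n = 6 and 7), and 0.70 without wild-type 1 and wild-type 2. Its lowest wild-type arrays were wild-type 5 (17.6) and wild-type 4 (23.3), both of litter 250, whose within-litter difference was 1.29 against 0.13 to 0.56 in the others. Shank3 had 423, 1237 and 1425 against 898, 1123 and 1438. Wild-type 2 was its low array, and the change of 0.13 ± 0.24 was -0.12 without it.

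Camk2a and Camk2b encode the CaMKII subunits, of which the beta form is the earlier in development. Camk2a signals were 301, 721 and 1136 in wild-type and 379, 673 and 995 in knock-out brains. Wild-type 1 was the highest of all arrays and wild-type 2 the lowest, so the wild-type range enclosed the knock-out range. The change was -0.04 ± 0.29 (-0.66 to 0.57; exact permutation p = 0.896, two-sided, n = 6 and 7), 0.11 without wild-type 1 and -0.26 without wild-type 2. Camk2b had 1621, 2421 and 3077 against 2084, 2775 and 3724, with wild-type 2 lowest and knock-out 1 standing 0.59 above the mean of the other knock-out arrays. Its change was 0.12 ± 0.17, and 0.01 without wild-type 2. Dlg2 (0.09 ± 0.14) and Dlgap1 (0.05 ± 0.15) were -0.03 and -0.06 without wild-type 1 and wild-type 2.

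Neuroligins are postsynaptic adhesion proteins that bind neurexins, Nlgn1 at excitatory and Nlgn2 at inhibitory synapses. The set had 3 of 3 higher knock-out means on the deposited values (1 after median centring) with a median of 0.03, just below that of all genes. Nlgn1 had signals of 157, 473 and 688 in wild-type and 338, 717 and 878 in knock-out brains. The lowest arrays were wild-type 1 and knock-out 1, and 4 of 7 knock-out arrays lay above the wild-type maximum. The change was 0.54 ± 0.29 (-0.08 to 1.16; exact permutation p = 0.124, two-sided, n = 6 and 7), 0.26 without wild-type 1 and 0.35 without wild-type 1 and wild-type 2. In litter 262 it was -0.15, while in litters 219, 238 and 250 it was 0.84, 0.71 and 0.73.

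Nlgn2 gave 1924, 3575 and 4197 in wild-type and 1952, 3152 and 4064 in knock-out brains. The ranges coincided, with the 2 embryos of litter 262 the lowest of their genotypes, and the change was 0.01 ± 0.20 (-0.43 to 0.44; exact permutation p = 0.969, two-sided, n = 6 and 7). The difference for Nlgn3 was 0.03 ± 0.15, and wild-type 6 and knock-out 7 were again the lowest.

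Many members are covered by several probe sets, which measure different stretches of the transcripts of 1 gene. The 43 genes had 109 probe sets, 94 of them above the filter, and 85 of these had a higher knock-out mean on the deposited values (72.5% of all probe sets tested did). With every probe set tested on its own, 0 of 94 passed the threshold (17 of 27022, or 0.0629%, did over the whole array), and 4 had an unadjusted p under 0.05, which is near the 3.96% of all probe sets. Of 28 members with several probe sets above the filter, 7 held both signs: Camk2a, Dlgap1, Gabbr1, Gabra2, Gphn, Grin2d and Homer1.

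The probe sets also show how wild-type 1 and wild-type 2 differed within a gene. On wild-type 1 the 3 Gabrb1 probe sets lay between -2.58 and -2.45 relative to the other wild-type arrays, the 2 of Gabrg1 between -1.97 and -1.93, and the 5 of Gabrb2 between -1.93 and -1.24. The probe sets of these genes were thus low together. On wild-type 2 they spread more within some genes, between -5.24 and -0.96 for the 3 of Dlg4 and between -3.44 and 0.42 for the 3 of Gabbr1. Some genes spread on wild-type 1 as well, Gria2 from -1.86 to -0.38 and Grik1 from -2.26 to -0.49.

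Maturation of synapses is known to shift the balance of certain pairs, so 6 pairs were set as differences within each array, which cancel a scale factor common to the array, and 4 could be measured. Probe sets differ in brightness, so the genotypes were compared and not the 2 genes. Camk2a minus Camk2b was -1.85 ± 0.39 (SD, n = 6) in wild-type and -2.01 ± 0.54 (SD, n = 7) in knock-out brains, a difference of -0.16 (95% interval -0.75 to 0.42; exact permutation p = 0.548, adjusted over 4 pairs 0.883, two-sided). Dlg4 minus Dlg3 was 0.46 ± 1.19 against 0.73 ± 0.26, a difference of 0.27 (-0.74 to 1.29; exact permutation p = 0.858, adjusted 0.883). Wild-type 2 stood at -1.95 there with the next wild-type array at 0.64, and without it the difference was -0.21.

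The balance of Gria2 and Gria4 was 1.48 ± 0.37 against 1.54 ± 0.36, a difference of 0.06 (-0.39 to 0.50; exact permutation p = 0.760, adjusted 0.883), and -0.07 without wild-type 1. For Slc12a5 and Slc12a2, the chloride exporter and importer whose ratio sets whether GABA inhibits, it was 1.75 ± 0.44 against 1.78 ± 0.37, a difference of 0.03 (-0.46 to 0.52; exact permutation p = 0.883), and -0.11 without wild-type 2. No pair differed beyond the spread between embryos, and the intervals leave room for differences of up to the bounds given.

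**Figure D5:**
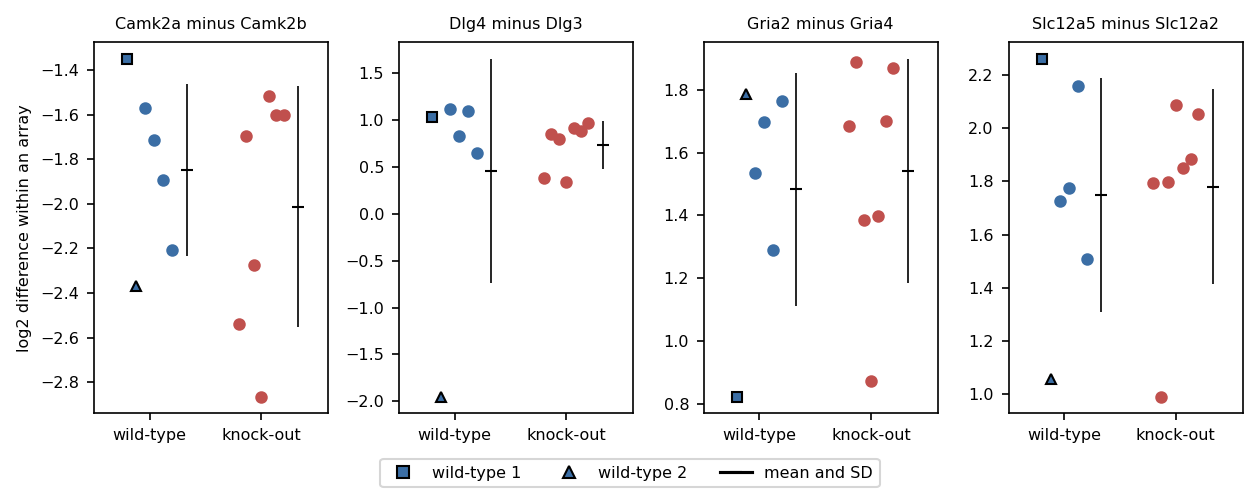
Log2 difference between the 2 genes of a pair on each array, for wild-type (blue, 6 arrays) and knock-out (red, 7 arrays), with the mean and SD beside each group; squares are wild-type 1 and triangles wild-type 2. The genotypes overlap for all 4 pairs, and wild-type 2 alone lies at -1.95 for Dlg4 minus Dlg3; only the shift between genotypes can be read, since the height depends on the brightness of the probe sets.

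Other genes of the same synapses showed no called difference. Of 19 further receptor genes 3 were tested and 2 had a higher knock-out mean, of 24 further scaffolds and auxiliary subunits 21 were tested and 15 were higher (median 0.05), and of 12 genes of transmitter synthesis, transport and chloride balance 10 were tested and 6 were higher (median 0.02). Over all genes the share with a higher mean was 65.4%. In each list 0 passed the threshold and 0 had an unadjusted p under 0.05. Without wild-type 1 and wild-type 2 the higher means numbered 1 of 3, 10 of 21 and 2 of 10, where the share of all genes was 50.0%. The smallest p of the lists belonged to Grm4 (0.17 ± 0.11) and Grid1 (-0.09 ± 0.15), Dlgap2 (0.28 ± 0.19) and Cacng8 (-0.28 ± 0.19), and the glutamate transporters Slc1a2 (0.24 ± 0.17) and Slc17a6 (0.23 ± 0.22). The last 2, the astrocytic uptake carrier and a vesicular carrier, were 0.03 and 0.00 without wild-type 1 and wild-type 2.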

How the data were processed

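Each array held biotin-labelled cRNA made from 5 µg of total RNA. The authors deposited 1 table of intensity values per probe set on a linear scale, per the labels and the values themselves; the scaling is not given in the sources used here. Probe sets were named from the platform annotation supplied with the data (34945 with 1 symbol, 932 with several and 9160 with none), and only those with 1 symbol were used.

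Intensities were taken as log2(signal + 16), probe sets above the 40th percentile of the mean were kept, and genotypes were compared with limma 3.58.1 (lmFit and eBayes, R 4.3.3), without a block, at an adjusted p of 0.05 over all genes. Litter was a block in an alternative only; the deviations of 9 pairs of littermates correlated between -0.11 and 0.57. Single values were tested over all 1716 splits of the arrays. The procedure was tested on simulated data.

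The members, gene lists and tests were chosen with earlier results of these data known. Given in full were the 12 members with the smallest unadjusted p and a fixed list of subunits and scaffolds; from the other lists, the 2 smallest p each. Scaling, filter, probe set choice, blocks, litters and left-out arrays were varied.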

Additional observations from a re-analysis of the deposited data

Results flagged for a closer look

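In 17 of 84 groups (42 members in each genotype) the lowest array lay further from the next than Dixon's 95% limit allows. Chance gives at most about 1 in 20 groups, but the same few arrays account for the 17, so the groups are not independent. Arrays that stood apart at the high end were not counted. Wild-type 1 accounts for 10 of the 17. Its signals were 1192 for Gria2, 219.9 for Gria3, 600.1 for Grin3a, 1344 for Grm5, 106 for Grm8, 547 for Gabra3, 242 for Gabrb1, 604 for Gabrb2, 234 for Gabrg1 and 157 for Nlgn1, all receptor subunits or a neuroligin. Wild-type 2, of the same litter, accounts for 3, the kainate subunit Grik5 at 403 and the scaffolds Dlg4 at 268 and Shank3 at 423. Knock-out 1 accounts for 3, each of them also low on wild-type 1: Gabra3 at 796, Gabrb1 at 474 and Nlgn1 at 338. The last is knock-out 4, with Gria2 at 2114 and the next knock-out array at 4157.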

How the results depend on the processing

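No member passed the threshold under any alternative run. Members with a higher knock-out mean numbered 42 of 42 with the mean of all probe sets (all genes 72.2%). They numbered 13 under median centring (all genes 12.3%) and 24 of 41 without litter 219 (all genes 47.7%). In an alternative chosen after seeing the data, they numbered 22 without wild-type 1 and wild-type 2. The range over single left-out arrays was 28 (without wild-type 1) to 41. The members' median was -0.055 under median centring, 0.20 with the mean of all probe sets (all genes 0.07) and 0.05 to 0.20 over single left-out arrays. Members at an unadjusted p under 0.05 were 1 in the reported fit, 0 at the 60th percentile filter, after quantile normalization, median centring or equal trimmed means, with the Actb ratio as a covariate, without moderation and without litters 219, 250 or 262, 2 without litter 148, 3 with the mean of all probe sets, and 0 to 2 over single left-out arrays. With a replicate block, 2 members (Nlgn1 and Gphn) had an unadjusted p under 0.05 and 0 passed the threshold; the same-numbered arrays correlated between -0.26 and 0.40, so the numbers were not taken as pairs. Over single left-out arrays genes past the threshold numbered 3 to 4, members past it 0 to 0, and the pair differences ran from -0.27 to -0.02 for Camk2a and Camk2b, -0.21 to 0.41 for Dlg4 and Dlg3, -0.07 to 0.17 for Gria2 and Gria4 and -0.11 to 0.16 for Slc12a5 and Slc12a2. Leaving out arrays shows how the counts depend on them, and the cause was not tested. Signals near the filter (Shank1, Gabrg3) and below it (Grin2a) limit what can be said of those genes.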
